A study of Mus musculus with 8 samples.

Results

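The fibroblast growth factor (FGF) genes described here were 7 ligands (Fgf1, Fgf2, Fgf7, Fgf9, Fgf10, Fgf18, and Fgf21) and 3 receptors (Fgfr1, Fgfr2, and Fgfr3), which made 10 of the 18533 gene symbols counted. They were taken by symbol as FGF ligands of mesenchyme and their receptors, and Fgf10 was included because it was already known to be raised in this contrast. The members were thus chosen by values of the same comparison, so their levels and differences are given as a description, with no test. The RNA came from mouse aortic smooth muscle cells (MASMCs), primary cultures started from explants of aorta. WT cells (n = 4 samples) were compared with cells from Hint1-/- mice (n = 4 samples), and both genotypes were treated with platelet-derived growth factor BB (PDGF-BB) at 20 ng/mL for 24 hours. The comparison asks which transcripts differ between smooth muscle cells of the WT and Hint1-/- genotypes held under this mitogen. No sample without PDGF-BB was analysed here, so the effect of PDGF-BB itself on the FGF genes was not measured in either genotype. A genotype difference present without PDGF-BB and a different response to PDGF-BB cannot be told apart.

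The study's methods describe donors as male mice aged 4 to 6 weeks and describe gentle removal of adventitia and endothelium before the explants were digested. They name the thoracic aorta in one place and the whole aorta in another. The labels write the genotype as Hint1-/- and name no Cre driver. Neither the labels nor the methods say whether the 4 samples of a genotype were separate cultures or animals, so the p-values below measure only the spread between these samples, which may be technical.

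FGFs are small secreted proteins that bind receptor tyrosine kinases together with heparan sulphate, and the receptors pass the signal to the RAS-ERK, PI3K-AKT, and phospholipase C gamma pathways. Most act on neighbouring cells, with a set of ligands made in mesenchyme for receptors on epithelium, and a few (the Fgf21 and Fgf23 group) travel in blood as hormones and need a Klotho protein as co-receptor. In vascular smooth muscle, Fgf1 and Fgf2 acting through Fgfr1 are best known as mitogens and as signals that oppose the contractile state.

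Each sample held between 20778077 and 20888041 estimated counts, so depth was nearly equal across samples. Hint1, the targeted gene, had 2272 to 2364 counts in the WT group and 713 to 778 in the Hint1-/- group. Cells labelled Hint1-/- thus kept 32.1% of the WT level of Hint1 transcript, a log2 fold change of −1.64 (adjusted p = 6.77e-16 by edgeR's quasi-likelihood test with Benjamini-Hochberg adjustment, SE 0.037). Of 13535 genes tested, 2.83% passed both an adjusted p under 0.05 and a fold change over 1.5. These were 1.34% higher and 1.49% lower in Hint1-/- cells, and the median log2 fold change over all tested genes was 0.00. Without the fold limit 21.5% passed, and in 23.0% the 4 samples of one genotype did not overlap the 4 of the other. These percentages are the background for each count below. Levels are in CPM (counts scaled to library size), each as mean ± SD over the 4 samples of a genotype, and log2 fold changes are Hint1-/- over WT.

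Fgf10 stood apart among the members, at 22.0 ± 1.3 CPM in Hint1-/- cells against 4.13 ± 0.595 CPM in WT cells (SD, n = 4 each). Fgf10 is a ligand made by mesenchyme that acts on the epithelial form of Fgfr2 and is required for lung and limb bud outgrowth. Its estimated counts were 89, 69, 89, and 98 in WT samples 1 to 4 and 453, 449, 430, and 494 in Hint1-/- samples 1 to 4. Every Hint1-/- sample lay far above every WT sample, and the samples within a genotype lay close together. The fitted difference was 5.33-fold, a log2 fold change of 2.41 (SE 0.086, 95% interval 2.23 to 2.59). The coefficient of variation was 14.4% in WT and 5.92% in Hint1-/- samples, where counting alone would give 10.8% and 4.68%. This difference is the value for which Fgf10 was selected. The gene lies on chromosome 13 of mm10 from 118669791 to 118792115. An antisense gene model, Gm16263, shares 123 bases with its exons, and since no strand setting of the counting is given in the sources used here, reads from the antisense model cannot be told apart from Fgf10 there. In cultures read in bulk, more cells that express Fgf10 and more Fgf10 RNA per cell cannot be told apart, and this holds for each gene below.

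Fgf7, keratinocyte growth factor, is the ligand nearest to Fgf10 in the family and acts on the same epithelial form of Fgfr2. Its counts were 4298, 4370, 4114, and 4110 in WT samples and 5039, 4949, 4578, and 4926 in Hint1-/- samples. All Hint1-/- samples lay above all WT samples, by a much smaller step than for Fgf10. Fgf7 stood at 202 ± 6.06 CPM in WT and 235 ± 10.2 CPM in Hint1-/- cells (SD, n = 4 each), a 1.16-fold difference with a log2 fold change of 0.22 (SE 0.0364, 95% interval 0.14 to 0.29). Fgf7 lies on chromosome 2 from 126034658 to 126091185, and no other gene model shares exon sequence with it.

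The promoters of this pair are shown because both ligands were higher in Hint1-/- cells and belong to 1 subfamily, while their difference between genotypes was unlike in size. Each sequence is the 250 bases before the RefSeq start on the plus strand of GRCm38.p6, the assembly of mm10. The windows are chr13:118714449-118714698 for Fgf10 and chr2:126034408-126034657 for Fgf7, with no annotated exon inside. The Fgf7 window ends next to the start of the Fgf7 gene model at 126034658. The Fgf10 window instead lies inside the Fgf10 gene model, which starts at 118669791, so the 2 windows are not placed alike.
Fgf10: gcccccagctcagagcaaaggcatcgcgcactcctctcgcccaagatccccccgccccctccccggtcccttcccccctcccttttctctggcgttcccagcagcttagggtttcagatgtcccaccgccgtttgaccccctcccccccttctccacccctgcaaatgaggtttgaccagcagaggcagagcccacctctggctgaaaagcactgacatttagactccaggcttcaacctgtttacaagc
Fgf7: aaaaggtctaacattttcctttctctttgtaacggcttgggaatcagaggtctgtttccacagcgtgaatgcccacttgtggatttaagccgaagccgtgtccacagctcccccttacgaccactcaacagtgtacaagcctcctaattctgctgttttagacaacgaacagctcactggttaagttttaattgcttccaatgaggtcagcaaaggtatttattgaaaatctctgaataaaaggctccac
The Fgf10 window was 61.2% G and C and the Fgf7 window 43.6%, against a median of 52.4% over 32851 promoter windows of the same length. Both windows were searched on both strands for an AP-2 site (GCCNNNGGC), an E-box (CACGTG), an AP-1 site (TGANTCA), and a TATA box (TATAAA), and neither held any, so no base is in capitals. These motifs occur in 13.7%, 6.02%, 6.75%, and 12.4% of all windows. The absence says only that these letters are not in these 250 bases.

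Fgf2 and Fgf1, which leave cells without a classical signal peptide, did not follow Fgf10. Fgf2, basic FGF, had counts of 1939, 1982, 1957, and 2081 in WT samples and 1817, 1800, 1716, and 1898 in Hint1-/- samples, with no overlap and the lower values in Hint1-/- cells. The levels were 95.2 ± 3.07 and 87.1 ± 3.65 CPM (SD, n = 4 each), a log2 fold change of −0.13 (SE 0.0378, 95% interval −0.21 to −0.05). Fgf2 lies on chromosome 3 from 37348346 to 37410108. There 640 bases of its exons also belong to Nudt6 on the opposite strand and 255 to the gene model Gm43439 on the same strand. A small difference here thus cannot be assigned to Fgf2 alone. Fgf1, acidic FGF, which binds all FGF receptors, had counts of 81, 99, 81, and 108 in WT and 88, 84, 67, and 103 in Hint1-/- samples. The genotypes overlapped for Fgf1, at 4.41 ± 0.644 and 4.12 ± 0.715 CPM, and the 95% interval of its log2 fold change ran from −0.39 to 0.19 around −0.10 (SE 0.138).

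The remaining ligands were scarce. Fgf9, which promotes growth of mesenchyme in lung and gonad, had 23, 15, 16, and 15 counts in WT samples and 23, 24, 22, and 31 in Hint1-/- samples. WT sample 1 overlapped the Hint1-/- samples, and the other WT samples lay below all of them. The log2 fold change of 0.54 (SE 0.227) had a wide 95% interval, from 0.07 to 1.02, at levels of 0.825 ± 0.187 and 1.21 ± 0.197 CPM. Fgf9 lies on chromosome 14 from 58070547 to 58112720.

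Fgf18, a ligand of skeletal and lung development, had 66, 56, 63, and 37 counts in WT and 52, 48, 69, and 46 in Hint1-/- samples. The genotypes overlapped throughout, with a log2 fold change of −0.04 (SE 0.182, 95% interval −0.42 to 0.35). Its position is 33117430 to 33147400 on chromosome 11. Fgf21, a hormone made chiefly by liver, was close to the floor of detection, with 0, 2, 2, and 2 counts in WT and 1 in each Hint1-/- sample. It was removed by the filter on low counts and not fitted. Over the pooled samples its 6 counts in WT and 4 in Hint1-/- cells gave a ratio of 0.667 with an exact 95% interval of 0.138 to 2.81, which covers counting error only, so a difference in Fgf21 was not detectable at this depth. Fgf21 lies on chromosome 7 from 45613886 to 45615490.

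**Figure D1:**
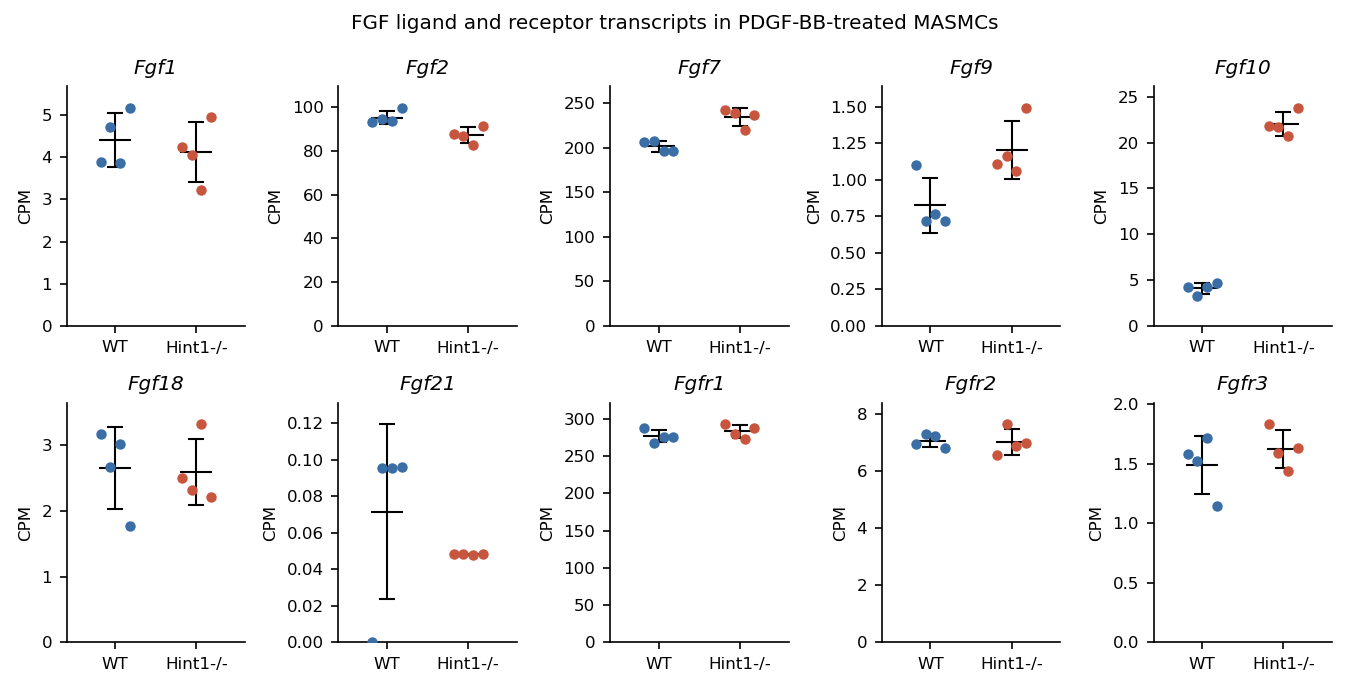
Expression of the 10 FGF genes in each sample, in CPM on linear axes that start at 0, for WT (blue) and Hint1-/- (red) MASMCs; points are samples and bars are the mean ± SD (n = 4). The 4 Hint1-/- points of Fgf10 lie around 22.0 CPM and the 4 WT points around 4.13 CPM, whereas the points of the genotypes overlap for Fgf1, Fgf9, Fgf18, and the 3 receptors.

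The receptors differed little between the genotypes. Fgfr1, the main FGF receptor of mesenchymal cells, had counts of 6002, 5624, 5754, and 5756 in WT samples and 6070, 5788, 5675, and 5989 in Hint1-/- samples. The samples were interleaved, and the narrow 95% interval of the log2 fold change, −0.04 to 0.11 around 0.03 (SE 0.0339), held no difference near the 1.5-fold limit. The Fgfr1 levels were 277 ± 8.24 and 283 ± 8.91 CPM (SD, n = 4 each), from a gene on chromosome 8 at 25513654 to 25575718. The antisense gene model Gm16159 shares 164 bases with the exons of Fgfr1.

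Fgfr2, whose epithelial splice form is the receptor for Fgf7 and Fgf10 and whose mesenchymal form binds other FGFs, had 145, 153, 151, and 142 counts in WT samples and 136, 158, 143, and 145 in Hint1-/- samples. The log2 fold change was −0.01 (SE 0.0829, 95% interval −0.18 to 0.16) at 7.07 ± 0.228 and 7.01 ± 0.452 CPM. Counts per gene do not separate the splice forms, so it is not known from these values whether cells with the Fgf10-binding form were present. The Fgfr2 model on chromosome 7 runs from 130162451 to 133123350 and shares 314 bases of exon with Ctbp2 on the same strand, and reads from the shared bases are uncertain. Fgfr3, known as a brake on cartilage growth, had 33, 32, 36, and 24 counts in WT samples and 38, 33, 30, and 34 in Hint1-/- samples. The genotypes overlapped, with a log2 fold change of 0.12 (SE 0.182, 95% interval −0.26 to 0.50). Fgfr3 lies on chromosome 5 from 33721674 to 33737068, and 998 bases of its exons lie opposite the gene model G630022F23Rik.

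Of the 10 members, 9 passed the filter on low counts. Fgf10 alone passed both thresholds, 1 of 9 against 2.83% of all genes, and Fgf2, Fgf7, and Fgf10 had an adjusted p under 0.05, 3 of 9 against 21.5%. The same 3 genes had no overlap between genotypes, against 23.0%. Since the same contrast chose the list, nothing is read from these counts. The median log2 fold change of the 9 genes was 0.03.

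Levels of different genes were compared per kilobase of exon. In WT cells Fgf7 was the most abundant member, at 62.2 ± 1.86 CPM per kilobase, followed by Fgfr1 at 28.0 ± 0.835 and Fgf2 at 14.0 ± 0.453. These 3 genes were well separated from each other and from Fgf18, at 2.24 ± 0.525 CPM per kilobase. Fgf10 (0.897 ± 0.129) and Fgf1 (0.808 ± 0.118) were neighbours whose WT samples overlapped, and Fgfr2 came next at 0.684 ± 0.022. The lowest were Fgfr3 (0.209 ± 0.0341) and Fgf9 (0.178 ± 0.0401), which also overlapped, and Fgf21.

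In Hint1-/- cells Fgf10 moved above Fgf18 to the 4th place, at 4.78 ± 0.283 against 2.18 ± 0.421 CPM per kilobase, with no overlap between the genes. The first 3 places did not change, with Fgf7 at 72.3 ± 3.12, Fgfr1 at 28.7 ± 0.902, and Fgf2 at 12.8 ± 0.539 CPM per kilobase. Overlapping neighbours in Hint1-/- cells were Fgf1 and Fgfr2, and Fgf9 and Fgfr3. With the length of the longest transcript in place of all exons, 8 of 10 members kept their place in WT and 6 of 10 in Hint1-/- cells, and Fgf7, Fgfr1, and Fgf2 kept the first 3.

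**Figure D2:**
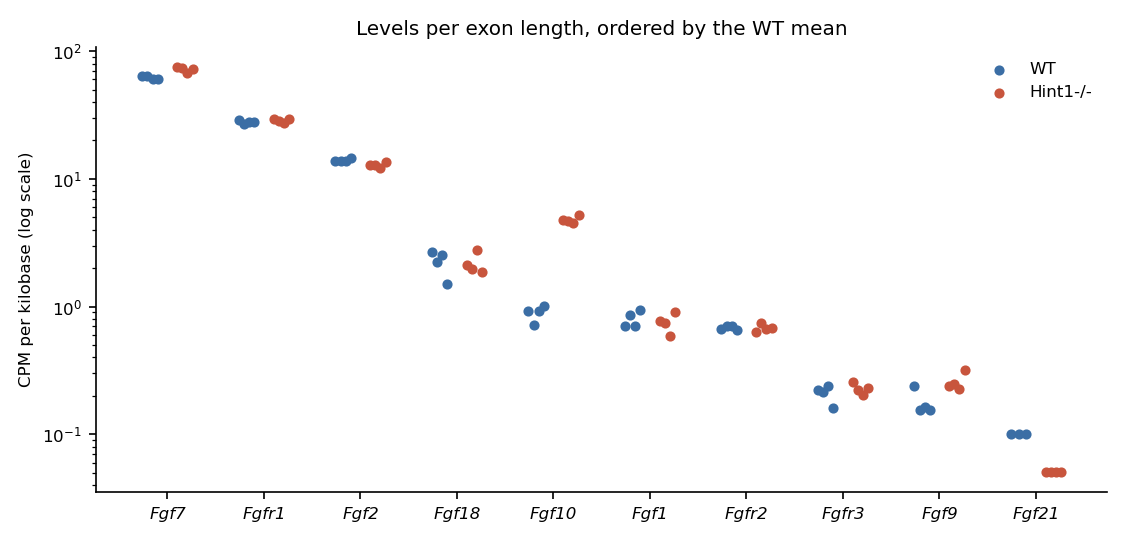
Level of each member per kilobase of exon, in CPM per kilobase on a logarithmic axis, with 1 point per sample for WT (blue) and Hint1-/- (red) MASMCs and genes ordered by their WT mean. Fgf10 lies near Fgf1 in WT cells and above Fgf18 in Hint1-/- cells, and the WT sample of Fgf21 with a count of 0 cannot be drawn on this axis.

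Fgf7 made up most of the transcript of the 7 member ligands in both genotypes. Its share of the summed level of the 7 ligands was 77.3 ± 0.653% in WT and 77.6 ± 0.708% in Hint1-/- cells. The share of Fgf10 went from 1.12 ± 0.178% to 5.13 ± 0.222%, and that of Fgf2 from 17.5 ± 0.819% to 13.8 ± 0.31%, with no overlap between genotypes for either. The summed ligand level was 80.4 ± 1.74 CPM per kilobase in WT and 93.2 ± 3.46 in Hint1-/- cells, with ranges of 78.8 to 82.1 and 88.1 to 95.7. Among the 3 member receptors, Fgfr1 held 96.9 ± 0.211% of the summed level in WT and 96.9 ± 0.157% in Hint1-/- cells. The 3 receptors together stood at 28.9 ± 0.828 and 29.6 ± 0.905 CPM per kilobase. Among the members, the higher Fgf10 transcript thus stood beside ligands that were mostly Fgf7 and receptors that were nearly all Fgfr1. FGF genes outside the members are not in these sums. Of these, Fgfrl1, from the list of other receptors, had 26.8 CPM in WT and 29.1 CPM in Hint1-/- cells. Its exons cover 2782 bases, against 9875 for Fgfr1. Fgf23 had 5.80 and 10.2 CPM over 1814 bases, against 4601 bases for Fgf10.

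The other FGF genes come from lists that hold no member, and their tests are edgeR's quasi-likelihood test with Benjamini-Hochberg adjustment over all 13535 genes. Among 12 further genes with counts that were listed as ligands, some of them intracellular, 4 could be tested. Of these, 1 rose (Fgf23) and 1 fell (Fgf5), and the median log2 fold change was 0.05. Fgf5, known for ending the growth phase of hair, had 45, 38, 53, and 43 counts in WT samples and 3, 6, 6, and 6 in Hint1-/- samples. There was no overlap between the genotypes, with 2.14 ± 0.30 CPM for WT and 0.253 ± 0.0722 CPM for Hint1-/- cells. The log2 fold change of −3.05 (adjusted p = 7.3e-08 by edgeR's quasi-likelihood test, SE 0.256) was larger in size than that of Fgf10 and opposite in sign. Fgf5 lies on chromosome 5 from 98254184 to 98277030.

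Fgf23, the hormone by which bone controls phosphate, had 139, 117, 108, and 121 counts in WT and 222, 192, 197, and 234 in Hint1-/- samples. All Hint1-/- samples exceeded all WT samples, at 10.2 ± 0.963 against 5.80 ± 0.634 CPM. Its log2 fold change was 0.81 (adjusted p = 3.94e-06 by edgeR's quasi-likelihood test, SE 0.0945), from a gene on chromosome 6 at 127072902 to 127081408. Fgf11, an intracellular member of the family and not a secreted ligand, was the other gene of high level in this list. It had a log2 fold change of −0.03 (adjusted p = 0.851 by edgeR, SE 0.0933). The 8 untested genes of this list had at most 10 counts in any sample. Fgf3, Fgf15, and Fgf20 were not analysed here.

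The promoters of Fgf5 and Fgf23 are shown because these further ligands passed both thresholds, in opposite directions. Both lie on the plus strand of GRCm38.p6 (RefSeq), at chr5:98253934-98254183 for Fgf5 and chr6:127072652-127072901 for Fgf23, and capitals mark a match to the AP-2 site.
Fgf5: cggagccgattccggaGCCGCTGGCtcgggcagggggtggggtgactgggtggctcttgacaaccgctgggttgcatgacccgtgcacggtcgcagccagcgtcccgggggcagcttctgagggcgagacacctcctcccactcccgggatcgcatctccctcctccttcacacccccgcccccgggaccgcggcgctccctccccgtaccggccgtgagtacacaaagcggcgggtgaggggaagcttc
Fgf23: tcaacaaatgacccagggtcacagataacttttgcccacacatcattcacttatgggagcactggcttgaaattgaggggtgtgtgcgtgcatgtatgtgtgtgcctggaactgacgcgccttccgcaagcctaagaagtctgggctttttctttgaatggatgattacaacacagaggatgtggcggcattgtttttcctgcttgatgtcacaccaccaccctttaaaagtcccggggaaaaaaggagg
The Fgf5 window was 70.8% G and C and held 1 AP-2 match, which starts 234 bases before the start site. The Fgf23 window was 48.4% G and C and held none of the 4 motifs. Windows of 8 members were searched, and only that of Fgf21 held a match, with an E-box 50 and a TATA box 28 bases before its start. Fgf1 and Fgfr1 were not searched. A match is a string of letters that 13.7% of all windows hold for AP-2, not a site shown to be bound.

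**Figure D3:**
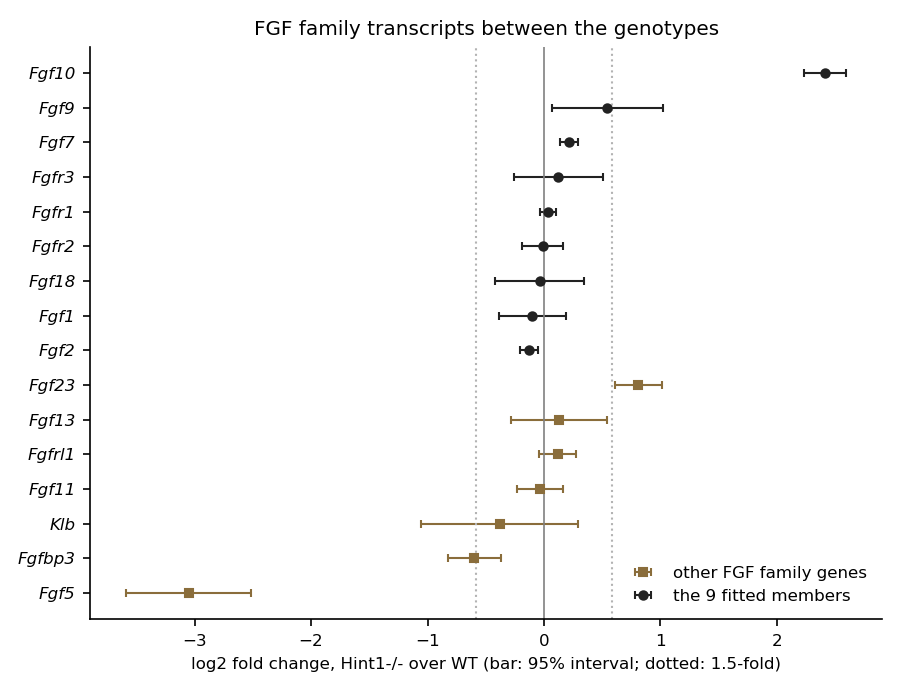
Log2 fold change of FGF family genes, Hint1-/- over WT, for the 9 fitted members (black circles) and 7 other FGF genes tested (brown squares), with bars for the 95% interval and dotted lines at a 1.5-fold difference. Fgf10 at 2.41 and Fgf5 at −3.05 lie farthest from 0 in opposite directions, and the intervals of the 3 receptors include 0.

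Across all 7 lists of FGF pathway genes, 112 genes had counts and 92 were tested. Of these, 3 rose (Fgf23, Spry3, and Gata4) and 3 fell (Fgf5, Fgfbp3, and Gpc3), 6.52% against 2.83% of all genes. An adjusted p under 0.05 was reached by 34 genes (20 higher and 14 lower), 37.0% against 21.5%. Of the 92, 36 had no overlap between genotypes, where 23.0% of all genes had none. The median log2 fold change was 0.01, so the listed genes moved in both directions and mostly by small steps.

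Among other receptors, co-receptors, and FGF-binding proteins, 1 of 8 tested genes fell and none rose past both thresholds, with a median log2 fold change of −0.13. The gene that fell was Fgfbp3, a carrier that releases FGFs from matrix, with 183, 204, 163, and 153 counts in WT and 124, 94, 126, and 117 in Hint1-/- samples. The difference was −0.60 on the log2 scale (adjusted p = 0.000509 by edgeR's quasi-likelihood test, SE 0.108), just past the fold limit. It no longer passed that limit without WT sample 1 (−0.58), WT sample 2 (−0.52), or Hint1-/- sample 2 (−0.51). The most abundant genes of this list were Flrt2, a membrane protein of the FLRT family, at a log2 fold change of 0.05 (adjusted p = 0.379 by edgeR, SE 0.0404), and Nrp2, a neuropilin co-receptor, at −0.16 (adjusted p = 0.00538 by edgeR, SE 0.0392, within the fold limit).

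Heparan sulphate chains on proteoglycans hold FGFs at the cell surface and are needed for receptor binding. Of 12 proteoglycan genes tested, 1 fell past both thresholds, Gpc3, a glypican, with 176, 171, 170, and 128 counts in WT and 79, 73, 77, and 63 in Hint1-/- samples. The genotypes did not overlap, and the log2 fold change was −1.13 (adjusted p = 1.1e-06 by edgeR's quasi-likelihood test, SE 0.118). Perlecan (Hspg2) and Sdc3, the most abundant of this list, had log2 fold changes of 0.11 (adjusted p = 0.153) and 0.06 (adjusted p = 0.311 by edgeR). Of 17 tested genes that build or edit the chains, 0 passed both thresholds by edgeR, DESeq2, or limma-voom, and 7 had an unadjusted p under 0.05. An adjusted p under 0.05 was reached by 6 of the 17, 5 higher and 1 lower, where 21.5% of all genes reached it. They included Sulf1, which removes sulphate groups, at a log2 fold change of 0.15 (adjusted p = 0.0013 by edgeR, SE 0.0308) and Ext1, a chain polymerase, at 0.12 (adjusted p = 0.00753 by edgeR, SE 0.0314).

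The genes that carry the signal inside the cell differed by small steps. Of 24 tested, 0 passed both thresholds by edgeR, DESeq2, or limma-voom, and 6 had an unadjusted p under 0.05. An adjusted p under 0.05 was reached by 3 of the 24, where 21.5% of all genes reached it. The list median was 0.02. The most abundant by the mean over both genotypes were Akt1, a kinase of the PI3K pathway, at a log2 fold change of −0.14 (adjusted p = 0.0113 by edgeR, SE 0.0387), and Map2k1, the kinase that activates ERK (below Ptpn11 and Shc1 in WT cells), at 0.20 (adjusted p = 7.95e-05 by edgeR, SE 0.0303). Both lay well within the fold limit.

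Feedback inhibitors and targets of FGF-ERK signalling differed in both directions. Of 21 tested, 1 rose past both thresholds, and 13 had an adjusted p under 0.05, 7 higher and 6 lower, where 21.5% of all genes did. The list median was 0.03. The gene past both was Spry3, a Sprouty protein that restrains receptor tyrosine kinase signalling, with 68, 89, 66, and 98 counts in WT and 126, 136, 120, and 134 in Hint1-/- samples. The difference on the log2 scale was 0.70 (adjusted p = 0.000423 by edgeR's quasi-likelihood test, SE 0.124), with no overlap between genotypes. The other Sprouty genes, named after their values were seen, were higher by smaller steps, so that 4 of 4 had an adjusted p under 0.05. Since this group was picked by its values, nothing is read from its count. Their log2 fold changes were 0.21 for Spry1 (adjusted p = 0.0267), 0.26 for Spry2 (adjusted p = 4.35e-05), and 0.22 for Spry4 (adjusted p = 0.033 by edgeR).

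Ccnd1, cyclin D1, which drives entry into the cell cycle, was the most abundant gene of the feedback and target list. It was lower in Hint1-/- cells by a log2 fold change of −0.29 (adjusted p = 3.23e-06 by edgeR, SE 0.0336), at 546 against 669 CPM. Egr1, an immediate early gene of ERK signalling, was next in abundance at a log2 fold change of 0.09 (adjusted p = 0.098 by edgeR, SE 0.0376). Dusp4 and Dusp5, phosphatases that switch ERK off and were named after their values were seen, had log2 fold changes of −0.30 (adjusted p = 3.15e-05) and −0.26 (adjusted p = 0.00341 by edgeR). Dusp6, the phosphatase used most often as a readout of FGF signalling, had a log2 fold change of 0.03 (adjusted p = 0.691 by edgeR). Of the Sprouty-related inhibitors, also named after their values were seen, Spred1 had a log2 fold change of −0.16 (adjusted p = 0.0032 by edgeR), and Spred2 and Spred3 did not pass (adjusted p = 0.838 and 0.747 by edgeR). PDGF-BB also acts through ERK, and the genes of this list are not particular to FGF receptors.

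Of 8 tested transcription factors listed as controlling Fgf10 in development, 1 rose past both thresholds. An adjusted p under 0.05 was reached by 5 of the 8, 4 higher and 1 lower, where 21.5% of all genes reached it. The list median was 0.32. Etv4 and Etv5 also belong to the feedback and target list, so this list is not made only of factors that act before Fgf10. Gata4, a factor of heart and visceral mesoderm, had 12, 15, 9, and 16 counts in WT and 45, 45, 26, and 40 in Hint1-/- samples. The genotypes did not overlap at these low counts, and the log2 fold change was 1.59 (adjusted p = 9.16e-05 by edgeR's quasi-likelihood test, SE 0.243). By the mean over both genotypes the most abundant genes of this list were Etv5, at a log2 fold change of 0.16 (adjusted p = 0.00804 by edgeR, SE 0.0419), and Mef2c, at −0.01 (adjusted p = 0.954 by edgeR, SE 0.0574). Sox9, above Mef2c in Hint1-/- cells alone, had a log2 fold change of 0.48 (adjusted p = 3.58e-06 by edgeR).

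**Figure D4:**
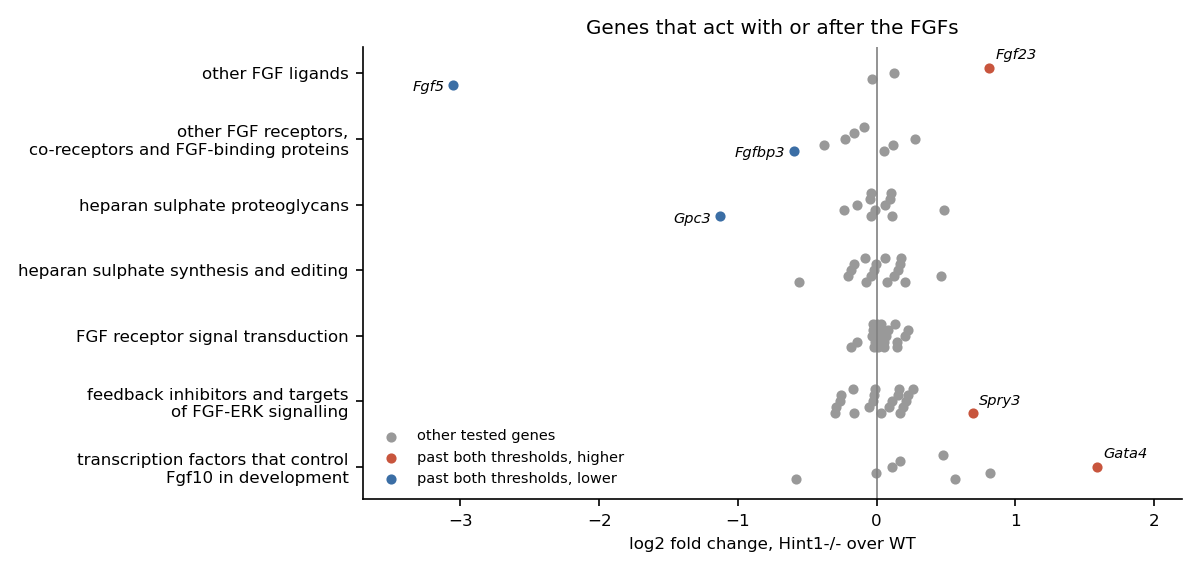
Log2 fold change, Hint1-/- over WT, of the tested genes of the 7 FGF pathway lists, with 1 point per gene, in red or blue where it passed both an adjusted p under 0.05 and a 1.5-fold difference. Named points are the 3 genes higher and the 3 lower, and most other genes lie near 0.

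Markers of cell types were read beside these values, since the cultures may hold more than smooth muscle. Of 8 smooth muscle markers tested, 4 (Cnn1, Myh11, Des, and Actg2) were lower past both thresholds, and the summed level of the list was 1370 to 1490 CPM in WT and 1120 to 1210 CPM in Hint1-/- samples. By adjusted p alone 6 were lower and 1, Smtn, was higher, at a log2 fold change of 0.25 (adjusted p = 9e-05 by edgeR). Acta2, the most abundant of them, had a log2 fold change of −0.51 (adjusted p = 1.35e-08 by edgeR). Contractile genes of the labelled cell type were thus present in all samples, which does not show what share of the cells was smooth muscle. Myocd, also on this list, had 8 to 14 counts in WT and 7 to 9 in Hint1-/- samples and was not tested. Of 10 markers of fibroblasts and adventitia, the mesenchyme where Fgf7 and Fgf10 are usually found, 3 (Dcn, Lum, and Tcf21) were higher and 1 (Dpt) was lower past both thresholds. Their summed level was 2470 to 2560 CPM in WT and 3320 to 3500 CPM in Hint1-/- samples, and Dcn, the most abundant, had a log2 fold change of 0.83 (adjusted p = 4.36e-12 by edgeR). Without Dcn the other 9 markers summed to 1370 to 1460 CPM in WT and 1370 to 1470 CPM in Hint1-/- samples, and their median log2 fold change was −0.03.

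Of 6 Schwann cell markers, 4 fell past both thresholds (Sox10, Ngfr, Erbb3, and Foxd3), with a list median of −1.71 and summed levels of 60.6 to 65.3 against 24.8 to 27.4 CPM. Mbp, the most abundant by the mean over both genotypes (Ngfr was higher in WT cells), had a log2 fold change of −0.17 (adjusted p = 0.105 by edgeR). All 7 macrophage markers were lower with an adjusted p under 0.05 and within the fold limit, at 2300 to 2660 CPM in WT and 1880 to 2000 CPM in Hint1-/- samples, led by Lyz2 at a log2 fold change of −0.32 (adjusted p = 2.75e-05 by edgeR). Of 4 cardiac muscle markers tested, 3 were higher (Myh6, Myl7, and Tnnt2), at 4.57 to 5.46 against 7.47 to 11.2 CPM for the list. Myl4, the most abundant, was at −0.03 (adjusted p = 0.908 by edgeR). Myh6 had 0 to 3 counts in WT and 32 to 58 in Hint1-/- samples, and Myl7 had 0 in each WT sample and 13 to 34 in Hint1-/- samples. Of the untested markers, Actc1 had 0 to 2 counts in WT and 4 to 20 in Hint1-/- samples. Nppa (3 to 8 and 1 to 4) and Myl2 (0 to 3 and 0 to 4) were low in both. Of 4 cartilage markers tested, 2 (Col2a1 and Comp) were higher and 1 (Acan) was lower, at 21.0 to 23.7 against 50.1 to 52.3 CPM, most of which in WT was Sox9. Col2a1 alone stood at 2.28 CPM in WT and 24.4 CPM in Hint1-/- cells. Without Col2a1 the other markers summed to 18.5 to 21.6 CPM in WT and 26.5 to 27.6 CPM in Hint1-/- samples.

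Of 6 endothelial markers tested, 0 passed both thresholds or an adjusted p under 0.05 by edgeR, 0 passed both by DESeq2 or limma-voom, and 1 had an unadjusted p under 0.05. Their summed level was 6.77 to 9.66 CPM in WT and 6.98 to 9.09 in Hint1-/- samples, and Cdh5, the most abundant in WT but not in Hint1-/- cells, stood at a log2 fold change of −0.48 (adjusted p = 0.105 by edgeR). For 2 tested adipocyte markers, led by Fabp4, the counts were likewise 0 by edgeR, DESeq2, and limma-voom, with 1 unadjusted p under 0.05, at 48.8 to 55.5 against 51.5 to 58.9 CPM. Epithelial markers, which would mark the usual target cells of Fgf7 and Fgf10, reached no more than 2 counts in a sample, and none could be tested. The summed levels of cardiac and cartilage markers were thus higher in the samples where Fgf10 was higher, for cartilage mostly through Col2a1. In the same samples the sums of Schwann cell, macrophage, and smooth muscle markers were lower. The fibroblast sum was higher through Dcn and overlapped between genotypes without it. The part of any of these cells in the FGF values was not tested.

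The 5 genes whose profile over the 8 samples lay nearest to that of Fgf10 were Lcn2, Vstm2a, Chil1, Nos2, and Ndufa4l2, of 11849 genes that averaged 50 or more counts. Likeness was the root mean square difference of log2 CPM after centring each gene on its WT mean, with 0 for an identical profile. The distance was 0.319 for Lcn2, a secreted protein that binds siderophores, 0.485 for Vstm2a, 0.550 for Chil1, a chitinase-like protein, 0.554 for Nos2, the inducible nitric oxide synthase, and 0.661 for Ndufa4l2, a mitochondrial protein induced by low oxygen. Nos2 counts were 1037, 1094, 871, and 675 in WT and 2776, 3451, 2692, and 3282 in Hint1-/- samples, and Ndufa4l2 counts were 405, 445, 448, and 480 against 1202, 1322, 1121, and 1308. The choice by nearness to Fgf10 fixed that all 5 were higher in Hint1-/- cells. Their fitted log2 fold changes ran from 1.49 for Ndufa4l2 to 1.99 for Lcn2, against 2.41 for Fgf10. No FGF gene was among them. The highest log2 fold change of another fitted FGF gene was 0.81, for Fgf23, so nothing is read from this absence.

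**Figure D5:**
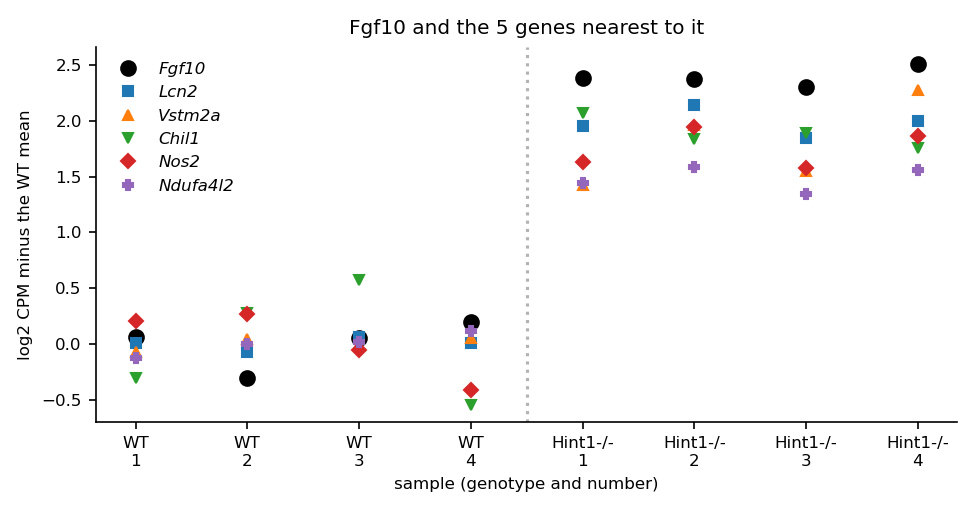
Log2 CPM of Fgf10 (black circles) and of the 5 genes with the nearest profile in each of the 8 samples, each gene centred on its WT mean. WT samples lie around 0, and in Hint1-/- samples Fgf10 lies above the other 5 genes in every sample.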

How the data were processed

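For each of the 8 samples, the authors deposited estimated counts per gene symbol, with decimals and no normalization. Whole numbers made up 67.3% to 67.8% of a sample's values. The submitters' processing notes name Bowtie2, RSEM 1.3.1, DESeq2 1.4.5, and mm10, whereas the study's methods name Hisat2 on mm10 for reads of 50 bases from a BGISEQ-500. The annotation and the strand setting are not given in the sources used here. No molecular identifiers are described, and the interval for Fgf21 reflects counting error alone.

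Estimated counts were rounded, filtered with filterByExpr, normalized by TMM (factors 0.993 to 1.009), and fitted in edgeR 4.0.16 under R 4.3.3 (glmQLFit and glmQLFTest, two-sided, genotype as the only term). Adjusted p-values are Benjamini-Hochberg values over all 13535 tested genes, the thresholds were 0.05 and 1.5-fold, and the biological coefficient of variation was 3.79%. The standard error is the log2 fold change divided by the square root of F. Log2 CPM used a prior count of 2. Samples of 1 genotype differed by more than counting noise (chi-square per gene of 2.19 to 6.02 within and 13.2 to 19.3 between genotypes), so no sample was treated as a duplicate. The fit was tested on simulated data.

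Positions and exon lengths came from GENCODE M21 (GRCm38), which held 17739 of 18533 symbols, and promoters came from RefSeq. The members and lists were chosen with earlier results of these data known. Genes named were all members, the genes past both thresholds and the 2 most abundant of each pathway list (1 of each marker list), Hint1, and the 5 nearest in profile to Fgf10. Other genes were named after their values were seen. Some genes of the Schwann cell list are not reported here and were left out of its values. Alternatives were DESeq2 1.42.0, limma-voom 3.58.1, other size factors and filters, a replicate block, each sample left out, no fold limit, and the longest transcript as gene length. Figures and tables were made in Python 3.11.15.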

Additional observations from a re-analysis of the deposited data

Results flagged for a closer look

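In 21 genes, each genotype's 4 samples were checked for 1 sample whose gap to the nearest other exceeded Dixon's 95% critical share of the group's range, which chance gives in about 1 of 20 groups, or 2.1 of the 42 groups checked. In 3 groups a sample stood apart in this way. Gaps and ranges were taken on log2 CPM, not on the counts given beside them. Fgf9 in WT sample 1, with 23 counts against 15 to 16 in the other WT samples, had a gap of 0.846 of the range. Fgf5 in Hint1-/- sample 1, with 3 counts against 6 in each of the others, had a gap of 0.992 of the range. Gpc3 in WT sample 4, with 128 counts against 170 to 176, had a gap of 0.881 of the range.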

How the results depend on the processing

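The alternatives were other size factors and filters, DESeq2, limma-voom, a replicate block, each sample left out, and no fold limit. The log2 fold change of Fgf10 lay between 2.32 and 2.48 over them, and 1 member passed both thresholds under 15 of them and 3 without the fold limit, which is a description since Fgf10 was chosen by this contrast. For pathway genes, leaving out 1 sample gave 3 to 4 higher and 2 to 4 lower genes, and without the fold limit 20 were higher and 14 lower. At least 10 counts in every sample left 2 and 2, since Fgf5 and Gata4 were then not tested. With the replicate number as a block, 1 member, 3 higher, and 3 lower pathway genes passed, as without it. Same-numbered samples deviated together weakly (correlations of 0.183, 0.136, −0.0492, and 0.063), and the numbers were not taken as pairs. Calls beyond the 6 were Tbx5 with no filter, Isl1 with limma-voom or without WT sample 2, Foxf1 without WT samples 1 or 4 or Hint1-/- sample 1, and Tbx1 with upper-quartile scaling or without WT sample 4 or Hint1-/- samples 1 or 3. With the longest transcript as length, the share of Fgf7 was 78.4% in WT and 78.7% in Hint1-/- cells, that of Fgf10 1.04% and 4.79%, and that of Fgfr1 96.6% in both, and 8 and 6 of 10 members kept their place. Over all genes, 336 passed by DESeq2, 394 by limma-voom, and 382 with the block, against 383. Low counts limit Fgf9, Fgf18, Fgf21, and Fgfr3, and splice forms were not measured.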

Other observations

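Several further factors of heart and lung mesoderm that control Fgf10 in development were named here after their values were seen. Tbx5, a factor required for limb and heart, had 0, 3, 2, and 1 counts in WT samples and 12, 5, 9, and 14 in Hint1-/- samples. It was too low for the filter, and in the fit without a filter its log2 fold change was 2.65 (adjusted p = 0.00154 by edgeR, SE 0.584). Isl1, a factor of the second heart field, had 4, 13, 10, and 10 counts in WT and 16, 15, 18, and 16 in Hint1-/- samples, a log2 fold change of 0.82 (SE 0.30) that missed the threshold (adjusted p = 0.0608 by edgeR). Foxf1, a factor of lung and gut mesenchyme, was higher by a log2 fold change of 0.57 (adjusted p = 9.16e-05 by edgeR, SE 0.0866), just inside the fold limit. Tbx1, a factor of the pharyngeal arches, moved the other way, with a log2 fold change of −0.58 (adjusted p = 0.00459 by edgeR, SE 0.136).

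Enzymes and proteoglycans outside the most abundant ones also differed within the fold limit. Hpse, the heparanase that cuts heparan sulphate chains, had a log2 fold change of 0.46 (adjusted p = 5.43e-06 by edgeR, SE 0.055), and Tgfbr3, a heparan sulphate proteoglycan that binds TGF-beta and FGF2, had 0.48 (adjusted p = 6.29e-07 by edgeR, SE 0.0484). Gpc1 was lower at −0.24 (adjusted p = 0.0013 by edgeR), as was Hs2st1, a sulphotransferase, at −0.16 (adjusted p = 0.00285 by edgeR).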
